A study of Homo sapiens with 12 samples.

Results

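The genes described here encode the subunits of the proteasome that cells make without an immune signal. They were taken by name: probe sets with exactly 1 gene symbol of the families PSMA, PSMB, PSMC and PSMD followed by a number, without PSMB8 and PSMB9, and where a gene had several such sets the one with the strongest mean signal over the 12 arrays. That gave 34 genes of the 17958 compared. By role they were 7 subunits of the 20S alpha ring, 3 catalytic and 4 structural subunits of the 20S beta ring, 5 ATPases and 3 other subunits of the 19S base, 6 subunits of the 19S lid, 3 chaperones that help to assemble the 19S particle (PSMD5, PSMD9 and PSMD10) and 3 alternative 20S subunits (PSMB10, PSMB11 and PSMA8). The name of the set as constitutive therefore fits 28 of the 34. PSMB10 is a catalytic subunit of the immunoproteasome, PSMB11 belongs to the proteasome of the thymus cortex, and PSMA8 to that of the testis. A further 3 subunit genes of the standard particle were not analysed here.

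The 26S proteasome degrades proteins marked with chains of ubiquitin. Its 20S core is a barrel of stacked alpha and beta rings with the cutting sites inside, and the 19S particle on its ends binds the marked protein, removes the ubiquitin, unfolds the chain and feeds it into the core. Cells keep the subunits at matched amounts, and when proteasome activity falls short the transcription factor NFE2L1 raises the subunit genes together through antioxidant response elements in their promoters. Tumour cells with a high rate of protein synthesis depend on this capacity, and proteasome inhibitors are used as cancer drugs.

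Expression was read on Affymetrix Human Gene ST arrays. The cells were 231BR, which home to the brain, derive from the human breast cancer line MDA-MB-231 and here carry EGFP. The cells received 10 nM estradiol with mouse astrocytes, vehicle (OH) with mouse astrocytes, 10 nM estradiol alone or vehicle alone, with 3 arrays in each of the 4 groups. Co-culture lasted 24 h, after which the EGFP-positive cells were sorted, and the labels describe RNA from sorted human cells for all 4 groups. By its title the series asks about effects of estrogen on these cells that pass through astrocytes with the estrogen receptor, and the parental line is known to lack estrogen receptor alpha. The 231BR line is a single derivative, the astrocytes were of another species, and nothing in the labels tells whether the 3 replicates came from different cultures, so the p-values rest on a spread between arrays that may be technical. Precision is limited by the small number of arrays.

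The range of signal differed between arrays. The SD of the log2 signals of all genes on an array averaged 1.60 ± 0.30 in estradiol with astrocytes, 1.65 ± 0.15 in vehicle with astrocytes, 1.94 ± 0.063 in estradiol alone and 1.92 ± 0.13 in vehicle alone (SD, n = 3 each). Replicate 2 of estradiol with astrocytes stood furthest apart, with an SD of 1.26, and replicate 2 of vehicle with astrocytes came next with 1.49. The array medians over all genes lay between 5.0 and 5.17, so the arrays shared a centre and differed in width. The median of the 34 subunit genes was 8.58, 6.09 and 8.42 on the arrays of estradiol with astrocytes and 8.29, 7.61 and 8.26 on those of vehicle with astrocytes, against 8.48, 8.28 and 8.47 in estradiol alone and 8.58, 8.41 and 8.02 in vehicle alone. Both arrays numbered 2 with astrocytes were thus the lowest of their groups, and 30 of the 34 genes had their lowest value of all 12 arrays on replicate 2 of estradiol with astrocytes. The counts and medians of the subunit genes in the astrocyte comparisons, and the changes of some of these genes, are therefore also given without that array. For the other genes described singly they are not given, and the part of the array range in the results was not tested. The array SD ran from 1.26 to 1.85 in estradiol with astrocytes and from 1.49 to 1.79 in vehicle with astrocytes. It ran from 1.88 to 2.00 in estradiol alone and from 1.77 to 2.02 in vehicle alone. The SD thus went largely with co-culture, and it was computed from the same values. A fit with the array SD as a covariate therefore cannot separate the array range from co-culture. In bulk RNA, fewer cells of a type and less RNA per cell cannot be told apart.

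**Figure D1:**
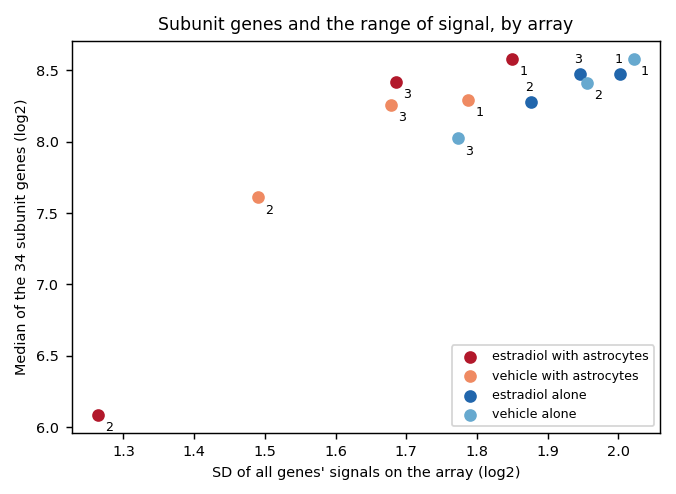
Median log2 signal of the 34 proteasome subunit genes (vertical axis) against the SD of all genes' log2 signals on the same array (horizontal axis), 1 point per array, coloured by group and numbered by replicate. Replicate 2 of estradiol with astrocytes sits lowest and furthest left (median 6.09, SD 1.26), followed by replicate 2 of vehicle with astrocytes (7.61 and 1.49).

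The subunit genes gave strong signals. Their mean over the 12 arrays was among the strongest 25% of all genes for 30 of the 34 and above the median gene for 32. The exceptions below the median were PSMA8 at 2.75 and PSMB11 at 3.51, the subunits of testis and thymus, and PSMB10 (6.08) and PSMD4 (5.54) lay between. The other genes ran from 6.54 (PSMD12) to 9.96 (PSMD8). A signal also depends on the probes of its set and the values used here carry no detection calls, so no order of expression between genes is read from these levels.

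**Figure D2:**
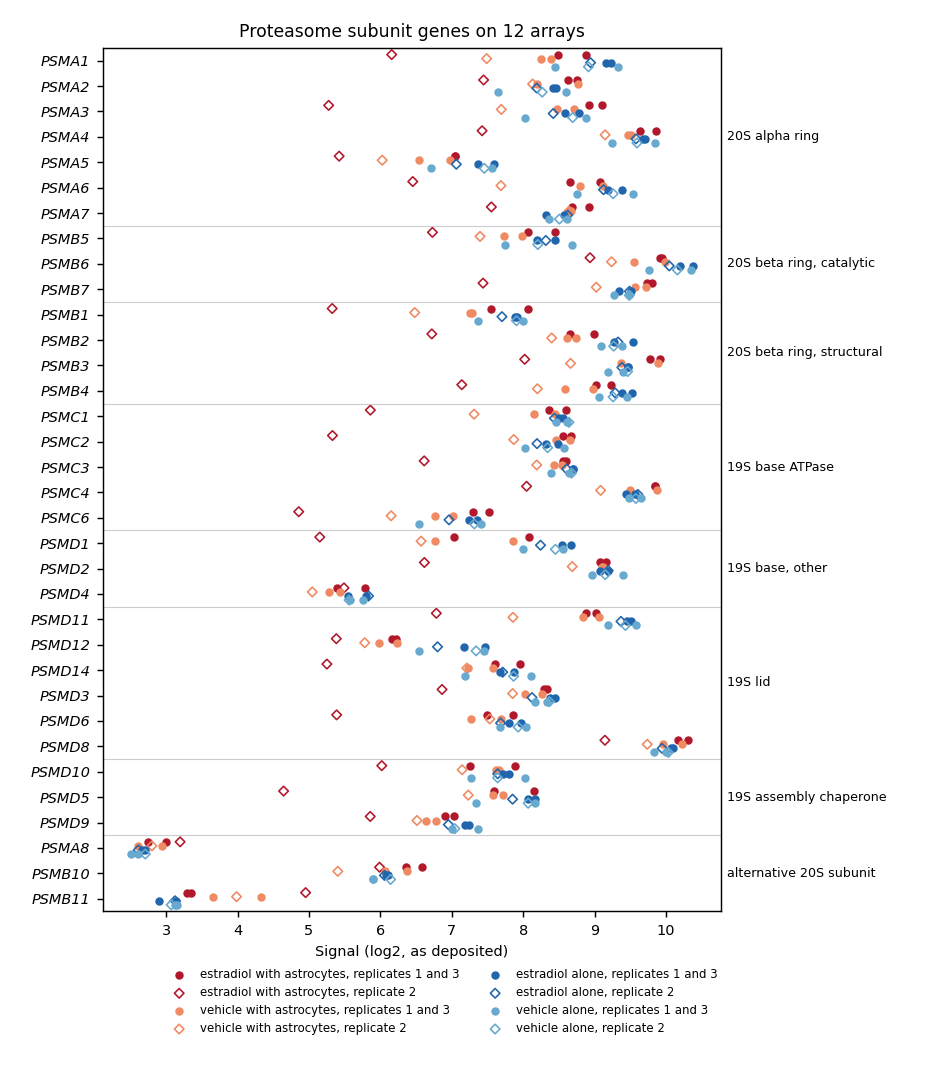
Log2 signal of each of the 34 subunit genes on the 12 arrays (horizontal axis), grouped by role, with replicate 2 of each group as an open diamond. The red open diamonds, replicate 2 of estradiol with astrocytes, lie left of all other points for 30 genes, and the 3 alternative subunits at the bottom have the lowest signals together with PSMD4.

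With astrocytes, 5 subunit genes fell and 1 rose when both astrocyte comparisons were averaged (6 arrays with astrocytes against 6 without, limma, adjusted p under 0.05 over all genes). Those that fell were PSMD12 and PSMD11 of the 19S lid, PSMD1 of the 19S base, PSMB2 of the beta ring and PSMA1 of the alpha ring, by 0.96 to 1.50 on the log2 scale. PSMB11, the thymus subunit with a low signal, rose. These 6 of 34 stand beside 47.5% of all genes called in this comparison (23% lower and 24.5% higher). At an unadjusted p under 0.05 there were 11 of the 34, beside 58.5% of all genes. The median change of the 34 genes was −0.53, against 0.07 over all genes, and 29 of the 34 were negative (47.1% of all genes), but with the array SD as a covariate the median was 0.41. Among the 25% of genes with the strongest signal, refitted alone, 32.2% were called (28.6% lower), their median change was −0.58, and 3 of the 30 subunit genes tested there were called.

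The median change depended on the arrays that stood apart. The 6 genes called over all arrays stayed called without replicate 2 of estradiol with astrocytes and without replicate 2 of both astrocyte groups. Without replicate 2 of estradiol with astrocytes, 7 genes fell and 1 rose, beside 48.9% of all genes, and the median change of the 34 was −0.17. Without replicate 2 of both astrocyte groups, 6 fell (PSMA1, PSMB2, PSMB4, PSMD1, PSMD11 and PSMD12) and 4 rose (PSMB3, PSMB7, PSMB10 and PSMB11), beside 44.8% of all genes, and the median was −0.12. Quantile normalization gave 5 lower and 3 higher, beside 32.3% of all genes, and the array SD as a covariate gave 1 lower and 5 higher, beside 13.6%. Only PSMD12 and PSMD1 kept their call whichever of the 12 arrays was left out. PSMA1 lost it in 8 of those 12 fits, PSMB2 and PSMD11 in 7 and PSMB11 in 5. The count of the 34 called was 17 without replicate 1 of estradiol with astrocytes (63.1% of all genes) and 10 without its replicate 3 (43.4%). It was 2 or 3 without any single array of estradiol alone, without replicate 1 or 2 of vehicle alone and without replicate 2 or 3 of vehicle with astrocytes, beside 26.6% to 38.1% of all genes.

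**Figure D3:**
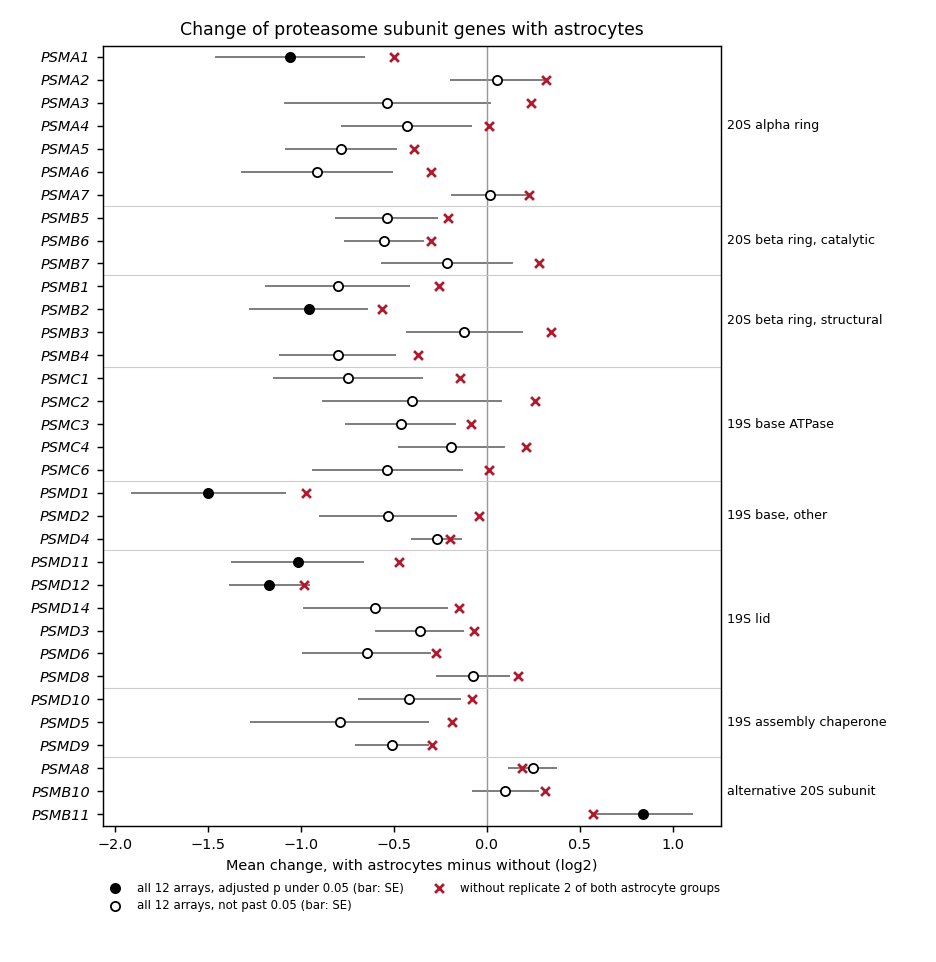
Mean log2 change of each subunit gene, arrays with astrocytes minus arrays without (horizontal axis; bars are SE of the limma fit over 12 arrays), filled where the adjusted p is under 0.05. Crosses give the same change without replicate 2 of both astrocyte groups; they lie right of the circles for all genes but PSMA8 and PSMB11, and with the array SD as a covariate the median change of the set is 0.41 instead of −0.53.

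Of the 6 genes of the 19S lid, which deubiquitinates the substrate, 2 fell, beside 23% of all genes. PSMD12 encodes a scaffold subunit of the lid. Its signal was 6.22, 5.38 and 6.16 in estradiol with astrocytes and 6.23, 5.78 and 5.97 in vehicle with astrocytes, against 7.46, 6.80 and 7.17 in estradiol alone and 7.45, 7.34 and 6.54 in vehicle alone. All 6 arrays with astrocytes lay below all 6 without. The mean change was −1.17 (SE 0.22, limma adjusted p = 0.00472), which is 2.25-fold lower, and it was −1.03 (adjusted p = 0.00274) without replicate 2 of estradiol with astrocytes. PSMD12 was also the subunit gene that stayed past the threshold with the array SD as a covariate, at −0.59 (adjusted p = 0.0336), while the other 5 called genes did not. PSMD11 encodes a lid scaffold subunit that contacts the 20S core, and its signal was 9.02, 6.78 and 8.89 in estradiol with astrocytes and 9.06, 7.86 and 8.84 in vehicle with astrocytes, against 9.45, 9.37 and 9.51 in estradiol alone and 9.58, 9.43 and 9.19 in vehicle alone. Here too the arrays with and without astrocytes did not overlap, and the gene fell by 1.02 (SE 0.36, limma adjusted p = 0.0373); without replicate 2 of estradiol with astrocytes the change was −0.65 (adjusted p = 0.0192), and with the array SD as a covariate it was 0.09.

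PSMD14 encodes the deubiquitinase of the lid, and its signal was 7.95, 5.25 and 7.60 in estradiol with astrocytes and 7.58, 7.21 and 7.22 in vehicle with astrocytes, against 7.68, 7.71 and 7.87 in estradiol alone and 8.11, 7.86 and 7.18 in vehicle alone. The groups overlapped, with the lowest value on replicate 2 of estradiol with astrocytes, and the change of −0.60 (SE 0.39) did not pass the test (adjusted p = 0.202); without that array it was −0.18. PSMD6, another lid subunit, had 7.86, 5.39 and 7.49 in estradiol with astrocytes and 7.69, 7.53 and 7.26 in vehicle with astrocytes, against 7.80, 7.68 and 7.96 in estradiol alone and 8.04, 7.93 and 7.68 in vehicle alone. Its change of −0.65 (SE 0.35) did not pass either (limma adjusted p = 0.130) and was −0.27 without that array. The last lid genes were PSMD3, at −0.36, and PSMD8, the gene with the strongest signal of the set, at −0.07. The median of the 6 lid genes was −0.62, and −0.22 without replicate 2 of estradiol with astrocytes.

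In the 19S base, PSMD1 encodes the large scaffold that, with PSMD2, docks ubiquitin receptors and shuttle proteins. PSMD1 had 8.08, 5.15 and 7.03 in estradiol with astrocytes and 7.86, 6.57 and 6.77 in vehicle with astrocytes, against 8.66, 8.24 and 8.54 in estradiol alone and 8.55, 8.45 and 8.0 in vehicle alone. Replicate 1 of each astrocyte group was the highest of its group, and only replicate 1 of estradiol with astrocytes (8.08) overlapped the arrays without astrocytes, of which the lowest was 8.0. The gene fell by 1.50 (SE 0.42, limma adjusted p = 0.0166), which is 2.82-fold lower, and it fell by 1.10 (adjusted p = 0.00698) without replicate 2 of estradiol with astrocytes, but with the array SD as a covariate the change was −0.17 (adjusted p = 0.609). PSMD2 had 9.16, 6.62 and 9.08 in estradiol with astrocytes and 9.12, 8.69 and 9.11 in vehicle with astrocytes, against 9.07, 9.19 and 9.18 in estradiol alone and 9.40, 9.15 and 8.97 in vehicle alone. Apart from replicate 2 of estradiol with astrocytes its values overlapped, and the change was −0.53 (SE 0.37, adjusted p = 0.233), or −0.11 without that array. So the 2 large base scaffolds gave different values, though the difference between them was not tested.

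PSMD4 encodes a ubiquitin receptor of the particle and had 5.79, 5.49 and 5.40 in estradiol with astrocytes and 5.44, 5.05 and 5.29 in vehicle with astrocytes, against 5.54, 5.83 and 5.79 in estradiol alone and 5.57, 5.56 and 5.76 in vehicle alone. These signals were low for the set and hardly moved on replicate 2 of estradiol with astrocytes. The change was −0.27 (SE 0.14, limma adjusted p = 0.111). A second probe set annotated to PSMD4 had a mean of 3.64 and changed by 0.37 the other way. Of its 20 neighbours by probe set number 19 belong to chromosome 21, while the gene lies on chromosome 1. Whether this second set measures PSMD4 was not tested.

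The ATPases of the base form the ring that unfolds the substrate, and none of the 5 measured passed the test, beside 47.5% of all genes. PSMC4 had 9.85, 8.05 and 9.84 in estradiol with astrocytes and 9.49, 9.08 and 9.87 in vehicle with astrocytes, against 9.45, 9.61 and 9.56 in estradiol alone and 9.65, 9.58 and 9.48 in vehicle alone. The values with astrocytes spread around those without, and the change was −0.19 (SE 0.29, limma adjusted p = 0.577), turning to 0.11 without replicate 2 of estradiol with astrocytes. PSMC2 had 8.67, 5.33 and 8.55 in estradiol with astrocytes and 8.65, 7.87 and 8.46 in vehicle with astrocytes, against 8.49, 8.19 and 8.32 in estradiol alone and 8.57, 8.34 and 8.02 in vehicle alone. Replicate 2 of estradiol with astrocytes lay far below the other arrays, and the change was −0.40 (SE 0.48, adjusted p = 0.481), turning to 0.15 without that array. PSMC3 had 8.56, 6.61 and 8.60 in estradiol with astrocytes and 8.54, 8.19 and 8.43 in vehicle with astrocytes, against 8.69, 8.61 and 8.70 in estradiol alone and 8.64, 8.68 and 8.39 in vehicle alone. Its change was −0.46 (SE 0.30, limma adjusted p = 0.200), or −0.13 without it. PSMC1 at −0.75 and PSMC6 at −0.53 complete the 5, whose median was −0.46, or −0.11 without replicate 2 of estradiol with astrocytes. For PSMC1 the probe set used sits by number among sets of chromosome 3 although the gene is on chromosome 14, and the other probe set of the gene changed by −0.74. For PSMC6, which is also on chromosome 14, the other probe set sits by number among sets of chromosome 8 and changed by −0.93. Whether the sets placed among those of another chromosome measure their annotated genes was not tested.

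The catalytic beta subunits carry the 3 kinds of cutting site of the core, and none of them passed the test, beside 47.5% of all genes. PSMB5, the chymotrypsin-like site and the target of bortezomib, had 8.44, 6.73 and 8.07 in estradiol with astrocytes and 7.72, 7.40 and 7.98 in vehicle with astrocytes, against 8.20, 8.32 and 8.44 in estradiol alone and 8.68, 8.20 and 7.74 in vehicle alone. The change was −0.54 (SE 0.28, limma adjusted p = 0.118), or −0.28 without replicate 2 of estradiol with astrocytes, and the groups overlapped. PSMB6, the caspase-like site, had 9.95, 8.94 and 9.91 in estradiol with astrocytes and 9.55, 9.24 and 9.98 in vehicle with astrocytes, against 10.37, 10.05 and 10.19 in estradiol alone and 10.36, 10.16 and 9.76 in vehicle alone. Its change of −0.55 (SE 0.21) came closest of the 3 to the threshold (adjusted p = 0.0504) and passed it after quantile normalization, at −0.32 (adjusted p = 0.0482), while without replicate 2 of estradiol with astrocytes it was −0.39 (adjusted p = 0.0653). PSMB7, the trypsin-like site, had 9.80, 7.44 and 9.73 in estradiol with astrocytes and 9.57, 9.02 and 9.72 in vehicle with astrocytes, against 9.51, 9.49 and 9.34 in estradiol alone and 9.48, 9.49 and 9.27 in vehicle alone. Outside replicate 2, all 4 arrays with astrocytes were above all 6 arrays without; the change over all arrays was −0.21 (SE 0.35, limma adjusted p = 0.610), and without replicate 2 of both astrocyte groups PSMB7 rose by 0.28 (adjusted p = 0.0485).

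Of the structural beta subunits 1 of 4 passed the test, beside 47.5% of all genes, and all 4 changes were negative. PSMB2 had 8.99, 6.72 and 8.66 in estradiol with astrocytes and 8.74, 8.40 and 8.61 in vehicle with astrocytes, against 9.28, 9.33 and 9.53 in estradiol alone and 9.39, 9.27 and 9.08 in vehicle alone. All 6 arrays with astrocytes lay below all 6 without, and the gene fell by 0.96 (SE 0.32, limma adjusted p = 0.0310), or by 0.61 (adjusted p = 0.00434) without replicate 2 of estradiol with astrocytes; with the array SD as a covariate the change was −0.03. A further probe set annotated to PSMB2 and another gene was left out by the rule. PSMB1 changed by −0.80 (adjusted p = 0.102) and PSMB4 by −0.80 (adjusted p = 0.0540). PSMB3 changed by −0.12 (adjusted p = 0.751), and without replicate 2 of both astrocyte groups it rose by 0.35 (adjusted p = 0.0469).

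The alpha ring forms the gate of the core, and 1 of its 7 genes passed the test, beside 47.5% of all genes. PSMA1 had 8.88, 6.16 and 8.48 in estradiol with astrocytes and 8.39, 7.49 and 8.25 in vehicle with astrocytes, against 9.16, 8.94 and 9.23 in estradiol alone and 9.32, 8.91 and 8.45 in vehicle alone. Except for replicate 3 of vehicle alone, the arrays without astrocytes lay above those with. The change was −1.06 (SE 0.40, limma adjusted p = 0.0479), or −0.64 (adjusted p = 0.0236) without replicate 2 of estradiol with astrocytes; with the array SD as a covariate it turned to 0.24. After quantile normalization PSMA1 did not pass (−0.66, limma adjusted p = 0.0755). PSMA2 had 8.75, 7.45 and 8.63 in estradiol with astrocytes and 8.19, 8.13 and 8.77 in vehicle with astrocytes, against 8.47, 8.19 and 8.41 in estradiol alone and 8.60, 8.27 and 7.65 in vehicle alone. Its change was 0.05 (SE 0.25, adjusted p = 0.858), and it rose by 0.53 (adjusted p = 0.0250) after quantile normalization. PSMA3 had the widest spread of the set with estradiol and astrocytes, 7.77 ± 2.16 (SD, n = 3), against 8.29 ± 0.53 with vehicle and astrocytes, 8.60 ± 0.18 in estradiol alone and 8.53 ± 0.45 in vehicle alone. The others changed by −0.43 (PSMA4), −0.78 (PSMA5), −0.91 (PSMA6) and 0.02 (PSMA7), and none of these passed.

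Among the 3 alternative subunits all changes were positive, and 1 passed the test, beside 47.5% of all genes. PSMB11 had 3.29, 4.95 and 3.35 in estradiol with astrocytes and 3.65, 3.98 and 4.33 in vehicle with astrocytes, against 2.90, 3.12 and 3.14 in estradiol alone and 3.13, 3.07 and 3.15 in vehicle alone. All 6 arrays with astrocytes were above the 6 without, and the gene rose by 0.84 (SE 0.27, limma adjusted p = 0.0254), but the highest value came from replicate 2 of estradiol with astrocytes; the rise was 0.57 (adjusted p = 0.00716) without it, and the change was 0.16 (adjusted p = 0.676) with the array SD as a covariate. After quantile normalization PSMB11 did not pass (0.58, limma adjusted p = 0.118). PSMB10, the immunoproteasome subunit that takes the place of PSMB7, had 6.58, 5.99 and 6.36 in estradiol with astrocytes and 6.06, 5.40 and 6.38 in vehicle with astrocytes, against 6.07, 6.06 and 6.10 in estradiol alone and 5.90, 6.14 and 5.89 in vehicle alone. Its change of 0.10 (SE 0.18, adjusted p = 0.642) became a rise of 0.49 (adjusted p = 0.0416) after quantile normalization. PSMA8 changed by 0.25 (adjusted p = 0.126) around a mean signal of 2.75, and by −0.10 (limma adjusted p = 0.472) after quantile normalization.

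None of the 3 chaperones passed the test, beside 47.5% of all genes. PSMD5, which holds the assembling base and delays its docking, had 8.15, 4.64 and 7.58 in estradiol with astrocytes and 7.72, 7.23 and 7.57 in vehicle with astrocytes, against 8.06, 7.85 and 8.16 in estradiol alone and 8.17, 8.07 and 7.34 in vehicle alone. PSMD9 had 7.03, 5.86 and 6.90 in estradiol with astrocytes and 6.64, 6.51 and 6.78 in vehicle with astrocytes, against 7.18, 6.95 and 7.24 in estradiol alone and 7.37, 7.04 and 7.0 in vehicle alone. PSMD10, also known as gankyrin, had 7.89, 6.02 and 7.25 in estradiol with astrocytes and 7.66, 7.14 and 7.61 in vehicle with astrocytes, against 7.79, 7.64 and 7.71 in estradiol alone and 8.02, 7.64 and 7.27 in vehicle alone. In all 3 the lowest array was replicate 2 of estradiol with astrocytes. Their changes were −0.79 for PSMD5 (adjusted p = 0.176), −0.51 for PSMD9 (adjusted p = 0.0539) and −0.42 for PSMD10 (limma adjusted p = 0.210). Without that array they were −0.25, −0.33 and −0.16, and PSMD9 then passed (adjusted p = 0.0463).

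Taken under each treatment alone, the astrocyte comparison called fewer subunit genes. With estradiol, PSMD12 fell by 1.22 (SE 0.31, limma adjusted p = 0.0377) and no other of the 34 passed, beside 13.2% of all genes (8.15% lower). At an unadjusted p under 0.05 there were 5, beside 43.9% of all genes. The median change of the set was −0.71, against 0.07 over all genes, with 31 of the 34 negative (47.6% of all genes), and it was −0.03 without replicate 2 of estradiol with astrocytes, when no subunit gene was called (2.32% of all genes) and PSMD12 changed by −0.95 (adjusted p = 0.0702). Leaving out replicate 1 of estradiol with astrocytes instead gave 13 (51.4% of all genes), and leaving out its replicate 3, any array of estradiol alone, replicate 1 or 2 of vehicle alone or replicate 3 of vehicle with astrocytes gave none, beside 5.75% of all genes in the last of these fits and 0.0167% to 0.0724% in the others. In 10 of the 34 the 3 arrays with astrocytes lay below the 3 without, beside 23.9% of all genes, and in 2 above, beside 27%. With vehicle, none of the 34 passed, with 2 at an unadjusted p under 0.05, beside 0.0557% of all genes called and 28.2% at an unadjusted p under 0.05; the smallest adjusted p was that of PSMD12 (0.0917), whose change was −1.12. The median of the set was −0.36, against 0.06 over all genes and −0.42 over the 25% with the strongest signal. In the set 27 of the 34 were negative (46.9% of all genes), and its median was 0.05 after quantile normalization. Here 10 genes lay lower without overlap, beside 18.4% of all genes, and 2 higher, beside 23.4%. The spread of all 4 groups enters this fit, and when replicate 2 of estradiol with astrocytes was left out 9 of the 34 passed with vehicle, beside 34% of all genes, PSMD12 among them (adjusted p = 0.0152). The comparisons under estradiol and under vehicle share the estimate of the spread but no arrays, and their mean holds the arrays of both.

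Estradiol itself called none of the 34 genes. In cells alone the median change against vehicle was 0.08, against 0.01 over all genes, 6 of the 34 were negative (44.5% of all genes), and the changes ran from −0.07 to 0.21. The background was 0% called, and 1 gene of the 17958 (0.00557%) and none of the 34 had an unadjusted p under 0.05. The smallest p-values of the set were those of PSMA2 (0.18, SE 0.35), PSMD4 (0.09, SE 0.19), PSMB10 (0.10, SE 0.25), PSMA1 (0.21, SE 0.57) and PSMB6 (0.11, SE 0.30), each log2 change smaller than its SE. Replicate 3 of vehicle alone held the lowest value of its group for 30 of the 34 genes, and without it the median was −0.07.

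With astrocytes, estradiol against vehicle again called none (0% of all genes), and 142 genes (0.791%) but none of the 34 had an unadjusted p under 0.05. The median change was −0.23, against 0.00 over all genes, with 29 of the 34 negative (49.5% of all genes). Without replicate 2 of estradiol with astrocytes the median was 0.34 with 1 negative, and leaving out any other single array kept it negative, between −0.55 and −0.10. The smallest p-values were those of PSMD4 (0.30, SE 0.19), PSMB10 (0.36, SE 0.25), PSMD2 (−0.69, SE 0.53), PSMD6 (−0.58, SE 0.49) and PSMC2 (−0.81, SE 0.68). The interaction, which asks whether the estradiol change differed with astrocytes, called none (0% of all genes; 31 genes, 0.173%, and none of the 34 at an unadjusted p under 0.05). Its median was −0.27, with 31 of the 34 negative (51.3% of all genes), and 0.28 without replicate 2 of estradiol with astrocytes, and its smallest p-values belonged to PSMC3 (−0.56, SE 0.60), PSMB2 (−0.60, SE 0.64), PSMD5 (−0.88, SE 0.96), PSMD2 (−0.66, SE 0.74) and PSMD10 (−0.49, SE 0.55).

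Setting each gene against the median subunit gene of the same array sets aside the level that the genes of an array share. PSMD1 then lay between −1.49 and −0.43 on the 6 arrays with astrocytes, against −0.04 to 0.19 on the 6 without. PSMA1 (−0.12 to 0.30 with astrocytes, 0.42 to 0.75 without), PSMD11 (0.25 to 0.77 with, 0.97 to 1.17 without) and PSMB2 (0.24 to 0.79 with, 0.80 to 1.06 without) also did not overlap. These genes are named because their differences on this measure were the most negative of the set, and the share of all genes that separate on it was not computed. PSMD12 lay between −2.36 and −1.83 on 5 of the arrays with astrocytes and at −0.71 on replicate 2 of estradiol with astrocytes, against −1.48 to −1.01 without, so the overlap came from that array, on which the median of the set was itself lowest. The genes that lay furthest the other way were PSMB11, which averaged −3.95 with astrocytes and −5.29 without, PSMA8 (−5.0 and −5.74), PSMB10 (−1.75 and −2.34), PSMA2 (0.44 and −0.11) and PSMA7 (0.64 and 0.12). All 5 had their highest value on replicate 2 of estradiol with astrocytes, at −1.14, −2.89, −0.10, 1.36 and 1.47, which raised these means, and in none of the 5 did the arrays with and without astrocytes separate. These are unequal changes within the set and do not show that any gene stayed level. Subtracting a median does not set aside a difference in width between arrays, and the part of that width here was not tested.

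**Figure D4:**
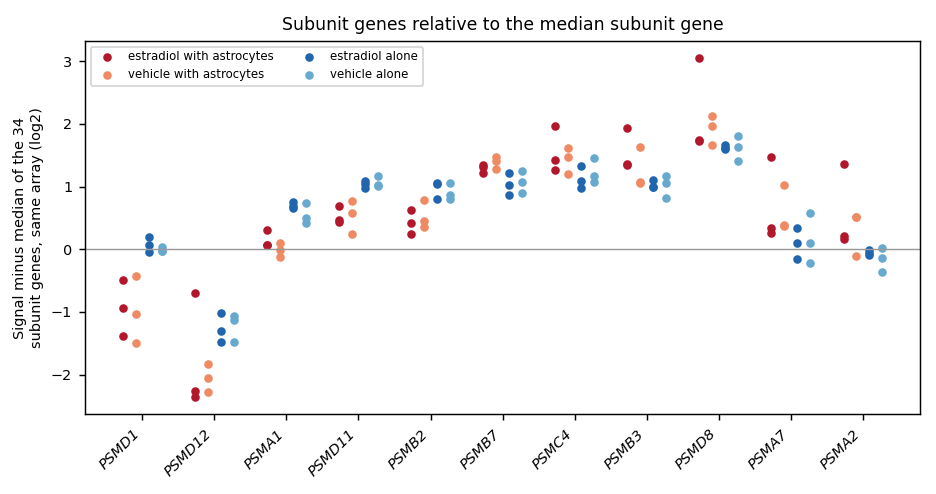
Log2 signal of 11 subunit genes minus the median of the 34 subunit genes on the same array (vertical axis), 1 point per array, with the groups of each gene ordered from estradiol with astrocytes to vehicle alone. PSMD1, PSMD12, PSMA1, PSMD11 and PSMB2 were picked for the most negative differences on this measure, so their lower position follows from the choice. Of these, all but PSMD12 show no overlap, and 1 array with astrocytes lies high for PSMD12. PSMB11, PSMA8 and PSMB10, which lay furthest the other way, are not shown.

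The other genes of the pathway, in 7 lists with 33 of 39 genes measured, gave 12 falls and 2 rises in the mean astrocyte comparison, beside the same 47.5% of all genes; their median change was −0.70, or −0.37 without replicate 2 of estradiol with astrocytes. Proteins that sit on the 19S particle gave the widest contrast. ECPAS, which binds the 26S particle, fell by 2.12 (SE 0.44, limma adjusted p = 0.00630). USP14 and UCHL5, the deubiquitinases that join the base, fell by 1.52 (adjusted p = 0.0196) and 1.15 (adjusted p = 0.0194), but with the array SD as a covariate both changes were −0.08 (adjusted p = 0.811 and 0.750). Their calls also ended without replicate 1 of vehicle alone or replicate 2 of vehicle with astrocytes, and that of UCHL5 without replicate 1 of estradiol alone. ADRM1, the ubiquitin receptor to which UCHL5 binds, rose by 0.43 (SE 0.13, adjusted p = 0.0194), a call that ended without replicate 3 of estradiol alone or replicate 2 of vehicle alone. With the array SD as a covariate ECPAS (−0.73, adjusted p = 0.0370) and ADRM1 (0.55, adjusted p = 0.0215) still passed.

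ADRM1 had 10.09, 9.73 and 10.14 in estradiol with astrocytes and 10.08, 10.10 and 10.24 in vehicle with astrocytes, against 9.61, 9.69 and 9.55 in estradiol alone and 9.63, 9.57 and 9.73 in vehicle alone. ECPAS had 7.26, 4.38 and 6.33 in estradiol with astrocytes and 7.16, 5.51 and 5.75 in vehicle with astrocytes, against 8.29, 8.01 and 8.22 in estradiol alone and 8.45, 8.36 and 7.77 in vehicle alone. ADRM1 on replicate 2 of estradiol with astrocytes fell within the arrays without astrocytes and on the other 5 arrays with astrocytes lay above them, while for ECPAS all 6 lay below. PSME4, the activator PA200 of the core, fell by 1.92 (SE 0.44, limma adjusted p = 0.00841), and the other 3 activators and the inhibitor PSMF1 did not pass. PAAF1, a chaperone of the ATPases, fell by 0.80 (adjusted p = 0.0139), while POMP, which matures the core, changed by −0.32 (adjusted p = 0.148). UBA6, a ubiquitin-activating enzyme, fell by 1.53 (adjusted p = 0.0143). With the array SD as a covariate none of PSME4 (−0.54, adjusted p = 0.105), PAAF1 (−0.21, adjusted p = 0.339) and UBA6 (−0.20, adjusted p = 0.414) passed.

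Among the proteins that deliver substrates, VCP, the segregase that pulls proteins from complexes and membranes, fell by 1.49 (adjusted p = 0.0190), and the shuttles UBQLN1, RAD23B and UBQLN2 fell by 1.23, 0.97 and 0.71 (limma adjusted p = 0.0284, 0.0485 and 0.00587), although with the array SD as a covariate VCP changed by −0.10 (adjusted p = 0.766), UBQLN1 by 0.058 and RAD23B by 0.14, and of the 4 only UBQLN2 passed, at −0.49 (adjusted p = 0.0439). After quantile normalization UBQLN2 did not pass (−0.24, adjusted p = 0.110). RAD23B lost its call in 8 of the 12 fits that left out 1 array and UBQLN1 in 6, each among arrays without astrocytes or of vehicle with astrocytes. NFE2L1, the regulator of the subunit genes named above, had 8.22, 5.63 and 7.63 in estradiol with astrocytes and 8.66, 7.57 and 7.51 in vehicle with astrocytes, against 9.10, 8.79 and 8.99 in estradiol alone and 8.97, 8.85 and 8.62 in vehicle alone. It fell by 1.35 (SE 0.38, limma adjusted p = 0.0173), and its relative NFE2L2 by 1.22 (SE 0.36, adjusted p = 0.0206). The call of NFE2L2 ended without replicate 1 of vehicle alone or replicate 2 of vehicle with astrocytes. With the array SD as a covariate NFE2L1 changed by −0.19 and NFE2L2 by −0.06, and neither passed. In the comparison under estradiol, ECPAS, PSME4, NFE2L1, PAAF1 and UBQLN2 passed, all lower (8.15% of all genes). Leaving out 1 array ended each of the calls of ECPAS, PSME4, NFE2L1 and PAAF1 in 10 of the 12 fits. That of UBQLN2 ended in 7. In the comparison under vehicle none of the 33 passed.

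Of the immunoproteasome genes kept out of the set, 1 of 2 passed the test, beside 47.5% of all genes. PSMB9 had 6.37, 6.59 and 6.62 in estradiol with astrocytes and 6.20, 6.43 and 6.44 in vehicle with astrocytes, against 6.12, 6.09 and 6.08 in estradiol alone and 5.98, 6.03 and 5.78 in vehicle alone. It was higher on all 6 arrays with astrocytes than on the 6 without and rose by 0.43 (SE 0.12, limma adjusted p = 0.0178), and leaving out any of the 12 arrays did not end this call, but with the array SD as a covariate it did not pass (0.37, adjusted p = 0.0847). PSMB8 had 5.67, 4.10 and 5.48 in estradiol with astrocytes and 5.07, 4.77 and 5.35 in vehicle with astrocytes, against 5.18, 4.91 and 5.05 in estradiol alone and 5.18, 5.12 and 4.54 in vehicle alone. Its change was 0.08 (SE 0.26, adjusted p = 0.803), while with the array SD as a covariate it rose by 0.84 (adjusted p = 0.00839) and with quantile normalization and without replicate 2 of both astrocyte groups by 0.55 (adjusted p = 0.0188).

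**Figure D5:**
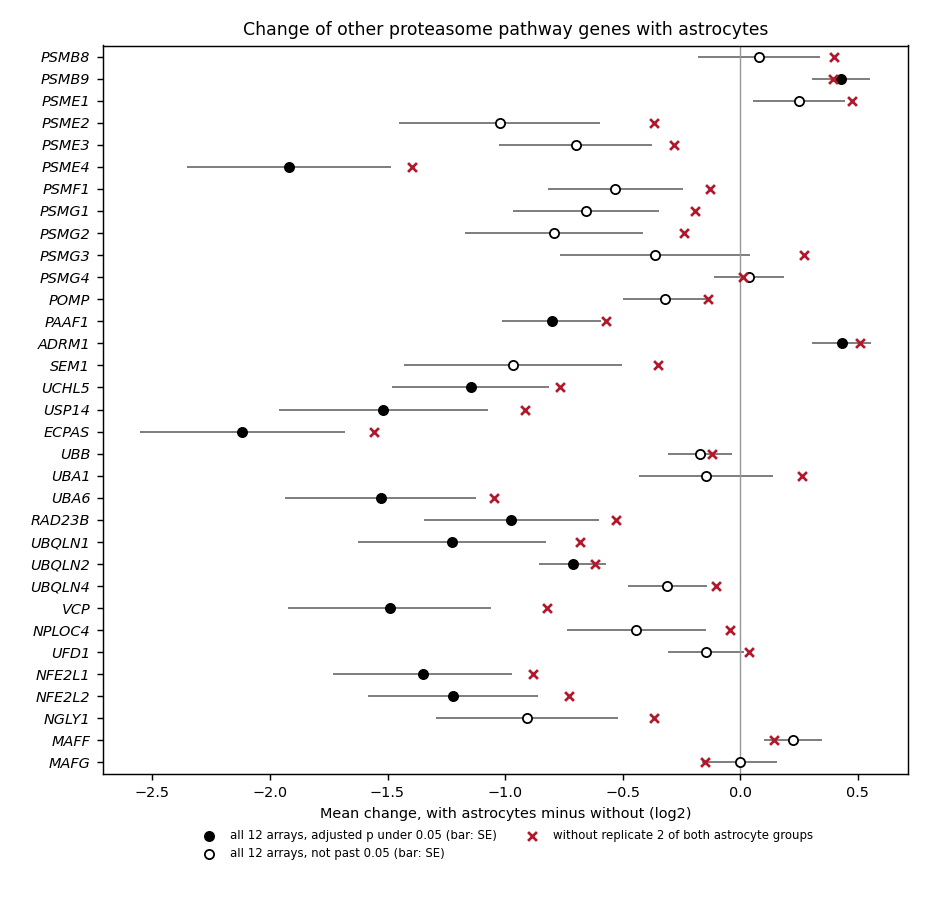
Mean log2 change, arrays with astrocytes minus arrays without (horizontal axis; bars are SE), of the 33 measured genes of the 7 pathway lists, filled where the limma adjusted p is under 0.05, with crosses for the fit without replicate 2 of both astrocyte groups. ECPAS (−2.12) and PSME4 (−1.92) lie furthest left, and ADRM1 and PSMB9 (both 0.43) are the filled points on the right.

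The 250 bases before the gene start are shown for PSMD12 and PSMD1, the genes whose call was kept whichever array was left out, for PSMD11, a lid gene that fell, and for PSMB3, which did not fall, because shared promoter elements are the known route of joint control. They are from RefSeq on GRCh38.p14, written 5′ to 3′ on the gene's strand, and lie at chr17:67366578-67366827 (minus strand, PSMD12), chr2:231056617-231056866 (plus strand, PSMD1), chr17:32444260-32444509 (plus strand, PSMD11), chr17:38752491-38752740 (plus strand, PSMB3). Capitals mark matches to the antioxidant response element core TGACNNNGC or the CCAAT box, searched on both strands.
PSMD12: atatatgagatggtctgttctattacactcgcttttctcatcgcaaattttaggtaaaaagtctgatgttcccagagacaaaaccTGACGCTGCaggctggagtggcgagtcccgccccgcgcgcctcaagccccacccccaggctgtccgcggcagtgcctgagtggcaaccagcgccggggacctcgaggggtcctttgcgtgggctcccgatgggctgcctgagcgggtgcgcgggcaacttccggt
PSMD1: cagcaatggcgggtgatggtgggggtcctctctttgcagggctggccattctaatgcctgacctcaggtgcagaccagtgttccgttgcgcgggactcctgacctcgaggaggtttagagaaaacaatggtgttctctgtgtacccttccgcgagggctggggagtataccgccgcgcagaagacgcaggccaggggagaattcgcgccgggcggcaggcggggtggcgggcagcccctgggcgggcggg
PSMD11: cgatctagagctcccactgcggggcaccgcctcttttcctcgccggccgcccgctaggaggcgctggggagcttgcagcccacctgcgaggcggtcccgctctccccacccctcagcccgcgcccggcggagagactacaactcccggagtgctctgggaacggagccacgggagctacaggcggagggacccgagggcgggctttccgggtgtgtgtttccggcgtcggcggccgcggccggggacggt
PSMB3: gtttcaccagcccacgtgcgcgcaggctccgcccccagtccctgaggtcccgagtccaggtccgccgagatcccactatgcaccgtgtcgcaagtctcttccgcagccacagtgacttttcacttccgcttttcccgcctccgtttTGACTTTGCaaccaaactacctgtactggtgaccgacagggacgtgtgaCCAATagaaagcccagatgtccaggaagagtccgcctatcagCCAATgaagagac
PSMD12 has 1 antioxidant response element core, starting 165 bases before the gene start, and PSMB3 has 1, starting 104 bases before it, and 2 CCAAT boxes. PSMD1 and PSMD11 have neither in these windows. The table gave 34 windows for 29 of the 34 genes. TGACNNNGC was found in 6 of them (17.6%), those of PSMA4, PSMB3, PSMD3, PSMD5, PSMD9 and PSMD12, beside 10.9% of all 35116 windows of the same length. CCAAT was found in 14 (41.2%), beside 32% of all windows, and the palindromic estrogen response element in none, beside 0.0399% of all. Of the 5 genes that fell, PSMD12 is in the first list. A match is a run of letters and no evidence of binding.

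Markers of the other cells that an astrocyte culture can hold were read on the same human arrays. The summed linear signal of 12 astrocyte markers ran from 534 to 695 in estradiol with astrocytes and from 547 to 750 in vehicle with astrocytes, against 635 to 677 in estradiol alone and 610 to 643 in vehicle alone. In the mean comparison 5 of the 12 rose and 2 fell, beside 24.5% of all genes higher and 23% lower. Of the 12 changes 7 were positive and 5 negative. GFAP averaged 5.97 in estradiol with astrocytes and 5.87 in vehicle with astrocytes, against 4.93 in estradiol alone and 5.02 in vehicle alone. SLC1A3 went the other way, at 5.56 and 5.57 against 6.52 and 6.49 in the same order. So did GJA1, at 5.67 and 5.56 against 6.41 and 6.11. Of 7 microglia and macrophage markers 3 rose, of 4 neuron markers 2 rose and 1 fell, and of 3 oligodendrocyte markers 2 rose. The same shares of all genes stand beside these counts. Log2 signals have no true 0, so no marker can be said to be absent. Of 8 markers of MDA-MB-231 cells 1 rose and 3 fell, and VIM was highest with a mean of 10.4. Of 4 genes chosen as absent from such cells (ESR1, PGR, EPCAM and CDH1) 1 rose, and 3 changes were positive and 1 negative. ESR1, the gene of estrogen receptor alpha, averaged 4.45 in estradiol with astrocytes and 4.21 in vehicle with astrocytes, against 3.45 in estradiol alone and 3.61 in vehicle alone. In the same order PGR averaged 3.34 and 3.11 against 2.70 and 2.72, and CDH1 3.85 and 3.93 against 3.51 and 3.38. EPCAM went the other way, at 5.19 and 5.37 against 5.76 and 5.85. The parts of the array range and of mouse transcripts in these low signals were not tested. The part of other cells in the changes of the subunit genes was not tested.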

How the data were processed

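The members and gene lists were chosen with earlier results of these data known. RMA and Partek appear in the submitters' processing notes, with versions and order not given in the sources used here. RMA yields log2 signals, and the deposited values were read as log2 without a check against scanner files; whether the authors centred the arrays is unknown. The deposited log2 columns do not share 1 distribution. Of 33297 probe sets, 19181 have 1 gene symbol, 2055 several, and 12061 are not in the probe table. For 895 genes with several, the probe set with the highest mean was taken, which left 17958 genes with no filter on low values. All 34 members match RefSeq symbols.

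Groups were compared in limma 3.58.1 (R 4.3.3), with 1 mean per group over all 12 arrays, eBayes, two-sided p-values and Benjamini-Hochberg adjustment over all genes for each of 6 contrasts at 0.05. The fit was tested on simulated data with known changes. Values in every array are given for the catalytic subunits, PSMC4, PSMD4, PSMD11, PSMD14 and the 5 members with the smallest p in each contrast; other list genes are named where they passed. PSMB8, PSMB9, NFE2L1, NFE2L2, ADRM1 and POMP were named in any case. Deviations of arrays with the same replicate number correlated over 0.1 in all 3 pairs only between the 2 astrocyte groups (r = 0.789, 0.756 and 0.214), a pairing taken from the values; as pairs these groups again called no member. Alternatives were 13 settings, each of the 12 arrays left out, and 2 chosen after seeing the data.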

Additional observations from a re-analysis of the deposited data

How the results depend on the processing

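Neither estradiol comparison nor the interaction called a member under any alternative run. Leaving out 1 array at a time, the members called ranged from 2 to 17 in the mean astrocyte comparison, 0 to 13 under estradiol and 0 to 9 under vehicle; the 17 and 13 came without replicate 1 of estradiol with astrocytes and the 9 without its replicate 2. The median change ranged from −0.70 to −0.17, −1.09 to −0.03 and −0.49 to −0.20 in these 3, from −0.07 to 0.18 for estradiol alone, −0.55 to 0.34 for estradiol with astrocytes and −0.65 to 0.28 for the interaction. In the order under vehicle, under estradiol and mean, the replicate block called 1, 4 and 11 members (14.4%, 37.3% and 57.2% of all genes). The labels do not say whether the replicate numbers pair these arrays. In the same order, arrayWeights called 12, 14 and 19 (59.4%, 66.8% and 76%). Leaving out replicate 2 of both astrocyte groups called 1, 0 and 10 (5.59%, 9.19% and 44.8%). Quantile normalization called 0 under estradiol (2.95% of all genes) and gave a median of 0.051 under vehicle. With replicate 2 of both astrocyte groups also left out it called 1, 1 and 12 (11.6%, 11.6% and 40.4% of all genes). The 1 under estradiol and 7 of the 12 were higher, and the median under vehicle was −0.0082. The array SD as a covariate called 1, 0 and 6 (5.45%, 1.89% and 13.6% of all genes). Of the 6, 5 were higher, and the medians were 0.47, 0.32 and 0.41. The array SD went largely with co-culture, so this fit cannot separate the array range from co-culture. The 25% of genes with the strongest signal called 0 under estradiol and 3 in the mean, beside 0.423% and 32.2% of the fewer genes tested. The arrays of the compared groups alone called 2 under vehicle (8.88% of all genes) and 0 under estradiol (0%).

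Changes of named genes in the mean comparison that turned sign across the threshold were, with the array SD as a covariate, PSMA1 (0.24), PSMA3 (1.20), PSMB3 (0.77), PSMB7 (0.81), PSMC2 (1.09), PSMD11 (0.093), UBA1 (0.68), RAD23B (0.14) and UBQLN1 (0.058); without replicate 2 of both astrocyte groups, PSMB3 (0.35), PSMB7 (0.28) and UBA1 (0.26); with quantile normalization as well, PSMA3 (0.39), PSMB3 (0.41), PSMB7 (0.33), PSMC2 (0.44), PSMG3 (0.56) and UBA1 (0.39); and with a gene's probe sets averaged, UBQLN4 (0.92). The cause was not tested. No detection calls were used, so signals near those of PSMA8 and PSMB11 cannot be told from background.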
